A study of Sus scrofa with 2 samples.

Results

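The later proximal tubule nuclei of pig renal cortex were described here in 2 single-nucleus RNA sequencing libraries, 1 from unperfused and 1 from perfused cortex. They numbered 1097 of 12955 nuclei, of which 614 of 7035 were in the unperfused library and 483 of 5920 in the perfused one. The proximal tubule takes back most of the filtered water, salt, glucose, amino acids and protein, and it secretes organic ions and drugs into the urine. Along its length the convoluted part, which lies next to the glomerulus, carries out most of the bulk uptake, and the straight part that follows is known for secretion of organic ions and for carriers that recover what is left. Organic cations enter the cell from the blood side through the transporter OCT2, the product of SLC22A2, and leave it into the urine through MATE1, the product of SLC47A1.

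The nuclei were selected on their own RNA. A barcode needed 500 to 6000 detected genes and at least 30 unique molecular identifiers (UMIs, each standing for 1 captured RNA molecule) of LRP2 and CUBN, the endocytic receptors of the proximal tubule, per 10000 UMIs. It had to hold fewer than 5 UMIs per 10000 of POU2F3, SLC5A8, NRG3 and BRINP1, which mark a separate CUBN-rich class of tubule nuclei. Its UMIs of the late genes ADCY8, SLC22A2 and SLC16A9 together had to outnumber those of the early genes SLC7A8, SLC5A12 and SLC2A2. These encode an amino acid carrier, a sodium-coupled lactate carrier and the glucose carrier GLUT2. Nuclei that met the same conditions with the early genes in the majority are called early proximal tubule nuclei below. There were 1551 of them in the unperfused library and 1010 in the perfused one. The values of the genes named in the rule chose the nuclei and are given as a description.

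All kidneys came from slaughterhouse pigs and were flushed with heparin in saline, and about 2 h of storage at 4 °C came before perfusion. Unperfused cortex was taken before perfusion, either ahead of or after this storage, which the sources do not specify. Perfused cortex was taken after 120 min on a circuit that perfused the organ ex vivo at 37 °C and 100 mmHg. No age, sex or breed was used, and the sources do not say whether both pieces came from 1 animal, so perfusion, animal and library cannot be told apart. With 1 library per condition there is no replicate check, and no test between conditions was made. All intervals are exact 95% intervals for counting error only. The unperfused library held 34415254 UMIs in 7179 barcodes and the perfused library 35525592 in 6205. The later proximal tubule nuclei contributed 3560287 and 3187728 UMIs, with a median of 4981.5 and 5963 UMIs and of 2356 and 2518 genes per nucleus. The libraries shared 14 barcodes, of which 3 belonged to a later nucleus in 1 library and 0 in both.

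Later nuclei made up 8.73% (8.08 to 9.41) of the unperfused and 8.16% (7.47 to 8.89) of the perfused nuclei. Of the proximal tubule nuclei alone they were 26.6% (24.8 to 28.4) of 2309 and 27.1% (25 to 29.2) of 1784. These intervals, which cover counting error within 1 library each, overlap. With SLC16A9 left out of the rule, an alternative chosen after the data had been seen, later nuclei were 2.15% and 3.07% of all nuclei, so that the perfused library had the larger share. It also did with nuclei that held markers of another lineage left out, at 5.57% and 5.68%. Early nuclei were 22.0% and 17.1% of all nuclei, and the CUBN-rich class was 1.21% and 4.31%. A further 59 and 36 proximal tubule nuclei held late and early UMIs in equal number and were placed in neither class.

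SLC16A9, a carrier of monocarboxylates and carnitine, held 88.7% of the late-gene UMIs of the unperfused and 81.3% of the perfused later nuclei. The class therefore rested largely on this gene. All 3 late genes were detected in 173 unperfused and 196 perfused nuclei, whereas 145 and 82 nuclei held SLC16A9 alone. Without SLC16A9, 151 and 182 nuclei would still have had more late than early UMIs. ADCY8, a calcium-stimulated adenylyl cyclase that makes cyclic AMP, was detected in 34.7% (30.9 to 38.6) of the unperfused and 48.7% (44.1 to 53.2) of the perfused later nuclei. SLC22A2 was detected in 70.2% (66.4 to 73.8) and 75.6% (71.5 to 79.3). In thick ascending limb nuclei, which should lack both genes and held a median of 4378 and 5904.5 UMIs, ADCY8 was found in 2.21% and 1.85% and SLC22A2 in 4.52% and 4.25%. After each nucleus was thinned to 1000 UMIs, the share with ADCY8 was 15.1% of the unperfused and 26.6% of the perfused later nuclei, and the share with SLC22A2 was 23.4% and 34.3%.

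The 3 marker genes that the rule did not use were read next. They were chosen with earlier results of these data known, so their values are a description and not an independent check of the label. Levels are the UMIs of a gene per 1000000 UMIs summed over the class (CPM), and are compared between classes and not between genes. SLC47A1 was at 245 CPM in unperfused and 310 CPM in perfused later nuclei, against 74.4 and 61.8 in early nuclei. HPD, an enzyme of tyrosine breakdown, was at 67.4 and 122 CPM against 15.7 and 16.6. AADAT, an aminotransferase of lysine and kynurenine breakdown, was at 435 and 548 CPM against 135 and 117. All 3 genes were thus higher in later than in early nuclei of both libraries. The early genes were still present: SLC5A12 was detected in 82.2% of the unperfused and 74.3% of the perfused later nuclei, and in 18.8% and 17.5% of thick ascending limb nuclei.

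Not all of these markers set the later nuclei apart from the CUBN-rich class. SLC47A1 was at 324 and 547 CPM in CUBN-rich nuclei, HPD at 110 and 181 CPM, and AADAT at 796 and 967 CPM, each above its level in later nuclei. SLC22A2 was at 283 and 396 CPM in later nuclei and at 327 and 466 CPM in CUBN-rich nuclei. The other late genes had the opposite order. ADCY8 was at 182 and 324 CPM in later nuclei, against 52.1 and 38.7 in CUBN-rich and 13.3 and 15.5 in early nuclei. SLC16A9 was at 3639 and 3138 CPM in later nuclei, against 1123 and 1314 in CUBN-rich and 780 and 713 in early nuclei. Against early nuclei the label of a later segment thus rested on part of the late segment genes. In the wider list of 11 such genes, 7 were above and 4 below the early level in both libraries, with a median log2 ratio of 0.13 and 0.14. Of the 6 markers, ADCY8 and SLC16A9 alone, both used by the rule, were higher than in the CUBN-rich class.

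**Figure D1:**
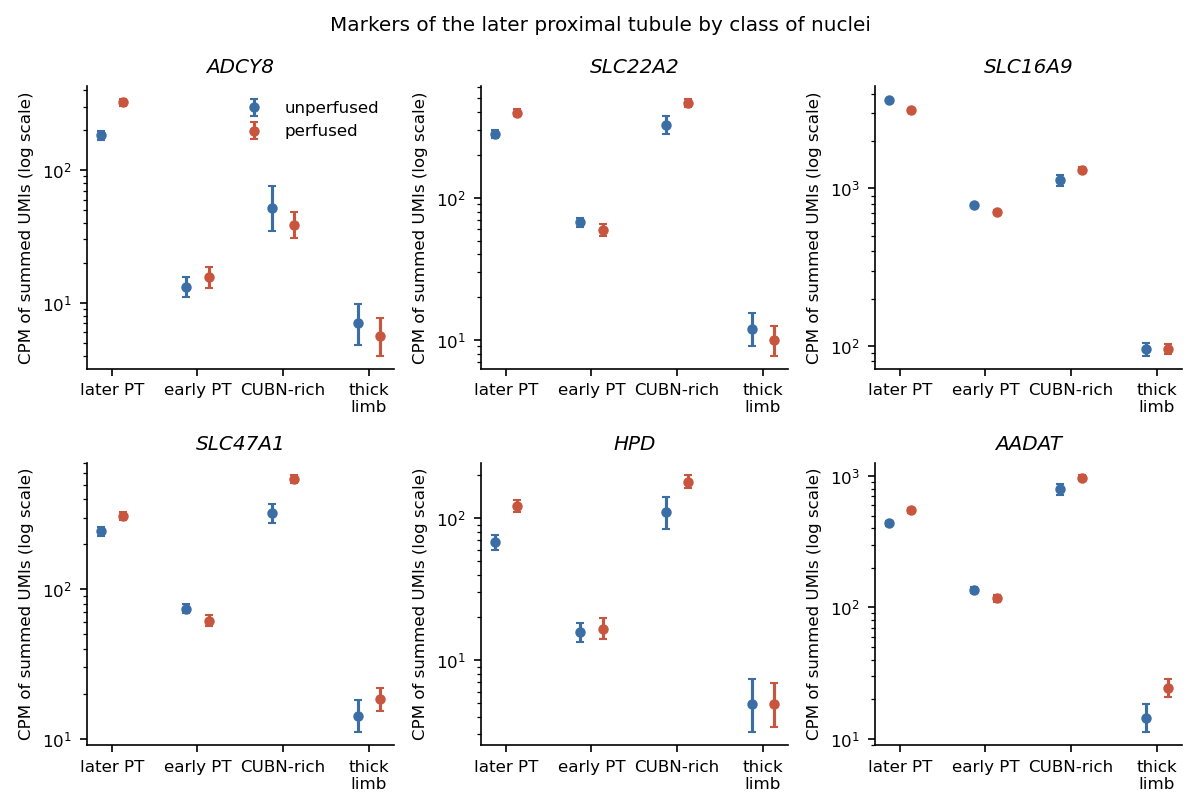
Level of the 6 marker genes in CPM of summed UMIs (log scale) in later proximal tubule, early proximal tubule, CUBN-rich and thick ascending limb nuclei, for the unperfused (blue) and perfused (red) library. Points are the level of a class in 1 library and bars its exact 95% counting interval. ADCY8 and SLC16A9 are highest in later nuclei, and the other 4 genes in CUBN-rich nuclei.

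The late and early nuclei did not fall into separate groups. The late genes held a median of 75% of the late and early UMIs of an unperfused later nucleus and 80% of a perfused one. A single UMI decided the class of 55 unperfused and 38 perfused nuclei just inside the limit, and of 53 and 41 just outside it. Just inside, SLC47A1 was at 201 CPM and 120 CPM, and GATM, which makes the creatine precursor guanidinoacetate, at 254 and 169 CPM. Just outside, SLC47A1 was at 242 and 136 CPM and GATM at 499 and 214 CPM. At the other limits, 17 and 12 members held 30 to 35 UMIs of LRP2 and CUBN per 10000, and 46 and 40 members held any UMI of the genes that mark CUBN-rich nuclei.

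Several genes followed the share of late UMIs among late and early UMIs within the later nuclei. From a share of 0.5 to 0.6 to a share of 0.8 to below 1, SLC47A1 went from 166 (139 to 197) to 306 (274 to 340) CPM in the unperfused library and from 174 (142 to 212) to 349 (317 to 384) CPM in the perfused library. CDH8, a cadherin, went from 28.7 (18.2 to 43.0) to 106 (88.1 to 127) CPM and from 32.7 (19.7 to 51.1) to 110 (92.7 to 130) CPM. The levels of CDH8 in the 2 libraries overlapped at every share. GATM went the other way, from 490 (443 to 541) to 254 (226 to 285) CPM and from 293 (251 to 340) to 137 (117 to 159) CPM. ETNPPL, an enzyme that degrades phosphoethanolamine, was highest in the nuclei with late UMIs only, where it reached 167 (111 to 241) CPM in 44 unperfused and 181 (129 to 247) CPM in 59 perfused nuclei. In the same nuclei HPD was at 53.5 (24.5 to 102) CPM in the unperfused library and 185 (132 to 252) CPM in the perfused one. These nuclei were shallower, with a median of 3544 and 2638 UMIs.

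Other proximal genes varied less along the same axis. SLC34A1, the main phosphate carrier of the brush border, was at 1249 CPM at a share of 0.5 to 0.6 and at 1252 CPM at 0.8 to below 1 in the unperfused library. In the perfused library it was at 889 (814 to 969) and 1113 (1055 to 1173) CPM, with intervals that do not overlap. SLC22A8, an organic anion transporter of the blood side, was at 631 and 551 CPM in the unperfused library and at 738 and 633 CPM in the perfused one.

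**Figure D2:**
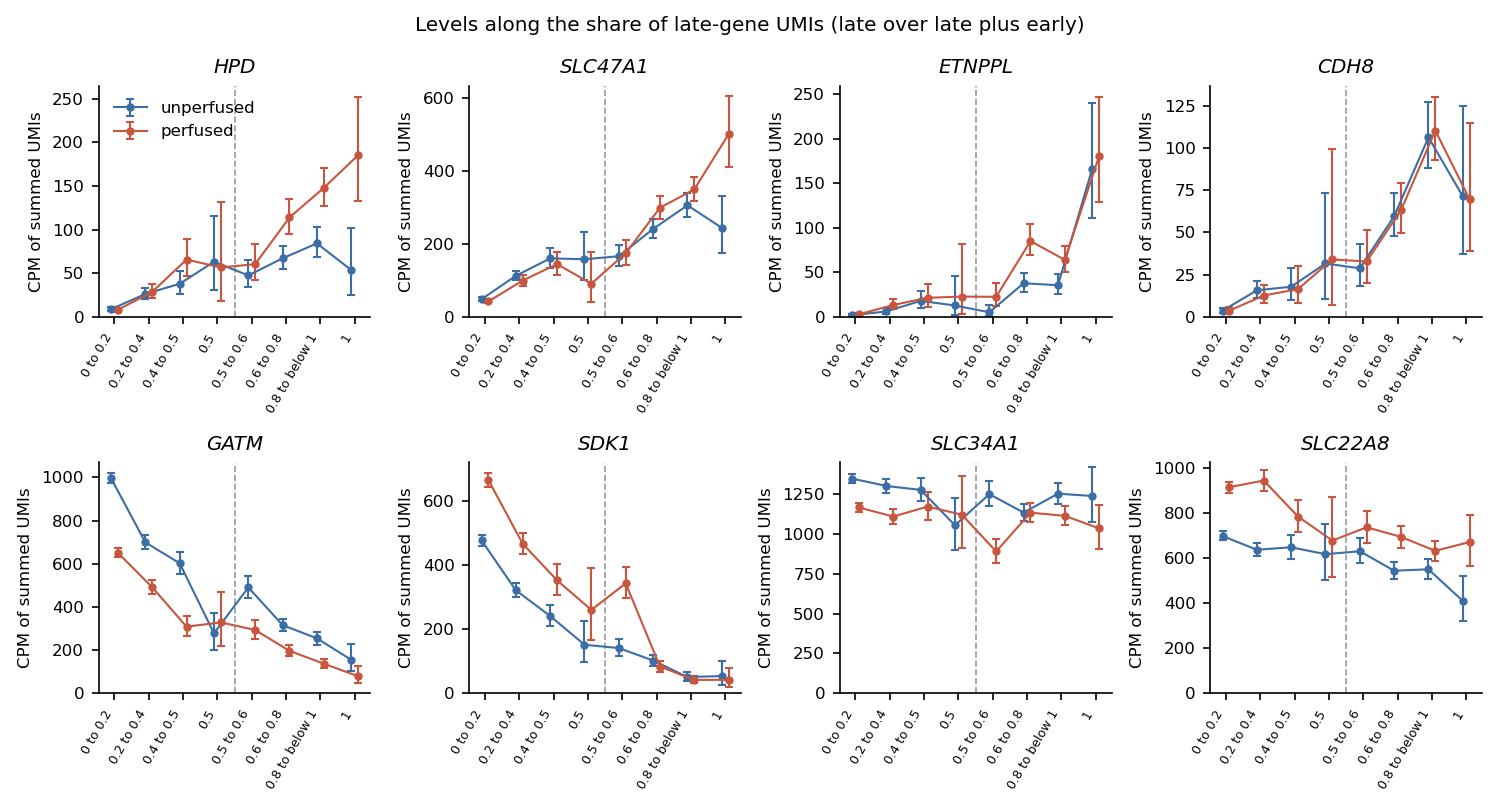
Level of 8 genes in CPM of summed UMIs against the share of late-gene UMIs, in bins from 0 to 1, for the unperfused (blue) and perfused (red) library. Bars are exact 95% counting intervals, and bins to the right of the dashed line hold the later nuclei. HPD, SLC47A1, ETNPPL and CDH8 are higher at high shares, GATM and SDK1 are lower, and SLC34A1 stays between 889 and 1346 CPM.

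Later and early nuclei were next compared across all genes other than the 12 genes of the rule. The rule cut these classes from the same RNA, so the values are a description. Among 9165 genes with at least 100 UMIs over both classes in each library, 112 (1.22%) were more than 2-fold higher in later nuclei of both libraries and 152 (1.66%) more than 2-fold lower. In 0 genes were the 2 libraries past 2-fold in opposite directions. The median log2 ratio over all genes was 0.02 in the unperfused library and within 0.01 of 0 in the perfused library.

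Outside the genes of the rule, and with mitochondrially encoded and ribosomal genes left out, the 12 named genes with the largest ratios included enzymes, signalling proteins and adhesion proteins. ETNPPL was at 35.7 CPM in later and 4.16 CPM in early nuclei of the unperfused library, a log2 ratio of 3.10 (2.59 to 3.63), and at 71.8 and 6.36 CPM in the perfused library, a ratio of 3.5 (3.06 to 3.96). CDH8 had ratios of 3.10 (2.73 to 3.48) and 3.56 (3.13 to 4.02). CYP2A19, a pig cytochrome P450, had ratios of 2.53 and 3.19, and F9, which encodes coagulation factor IX, of 2.15 and 2.96. Signalling genes among the 12 were PRKAR2B, a regulatory subunit of the cyclic AMP-dependent kinase, with ratios of 2.46 and 2.42, PTK2B, a calcium-responsive tyrosine kinase, with 2.13 and 2.60, and NCALD, a neuronal calcium sensor, with 2.25 and 2.78. NPR3, the clearance receptor of natriuretic peptides, had ratios of 2.11 and 2.70, and LTBP1, which binds latent TGF-beta, of 1.97 and 2.31. The others were HPD, SLC23A3 and TMEM252, with ratios from 2.10 to 2.88.

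Most of these genes were shared with the CUBN-rich class. In both libraries 10 of the 12 were at a higher CPM in CUBN-rich than in later nuclei. SLC23A3, for example, was at 70.5 and 88.8 CPM in later nuclei and at 403 and 523 CPM in CUBN-rich nuclei, and ETNPPL was at 221 and 351 CPM in the latter. The exceptions were CDH8, at 68.0 and 76.5 CPM in later and 31.6 and 22.3 CPM in CUBN-rich nuclei, and LTBP1, at 167 and 219 CPM against 91.1 and 69.5 CPM.

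The 12 named genes with the lowest ratios in later nuclei were below the early level in CUBN-rich nuclei as well, in both libraries. SLC38A3, a glutamine transporter, was at 14.9 CPM in later and 64.3 CPM in early nuclei of the unperfused library, a log2 ratio of -2.11 (-2.54 to -1.71), and at 11.0 and 70.6 CPM in the perfused library, a ratio of -2.69 (-3.22 to -2.19). DCLK2, a kinase of the doublecortin family, had ratios of -2.29 and -2.63, and SDK1, an adhesion protein, of -2.18 and -2.43. MT1A, a metallothionein that binds zinc and copper, was at 13.5 and 12.9 CPM in later nuclei and at 95.4 and 63.4 CPM in early nuclei. TTR, the carrier of thyroxine and retinol-binding protein, was at 12.9 and 13.2 CPM against 61.3 and 82.2 CPM. PRKG2, PPP2R2C, LRRC4C, CCDC3, TBX2, CMYA5 and C16orf89 made up the rest. CCDC3 rested on 13 and 4 UMIs in later nuclei, 84.6% of which in the unperfused library came from 1 nucleus.

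**Figure D3:**
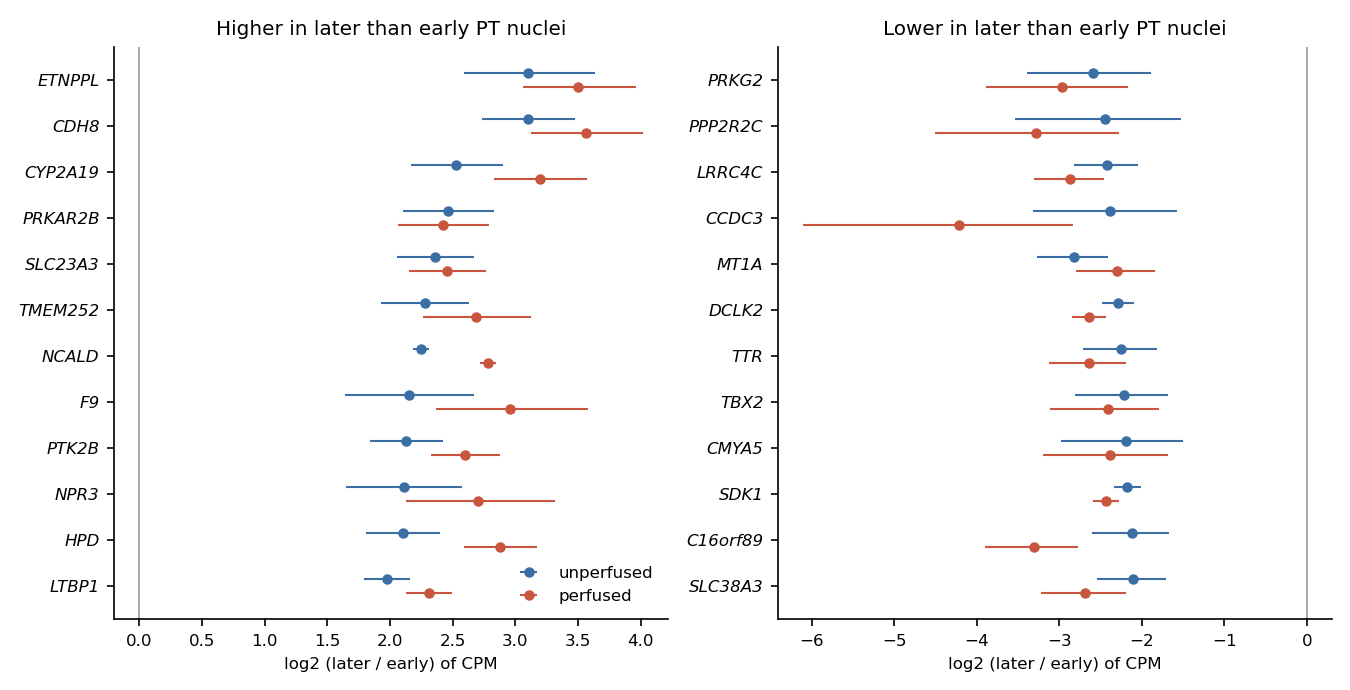
Log2 ratio of CPM in later over early proximal tubule nuclei for the 12 named genes with the largest ratio in each direction, the genes of the rule left out. Points are the unperfused (blue) and perfused (red) library and bars exact 95% counting intervals, and no interval includes 0. The ratio is larger in size in the perfused library for 11 of the 12 genes in each panel.

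The carriers and enzymes of the segment lists showed where later nuclei differed from early ones. Of 11 late segment genes with enough UMIs, 4 were past 2-fold higher in both libraries and 0 lower, against 1.22% and 1.66% of all genes compared. These were SLC47A1, HPD, AADAT and SLC6A18, a neutral amino acid carrier of the late proximal tubule, which was at 167 and 230 CPM in later and 44.1 and 36.8 CPM in early nuclei. SLC47A1, HPD and AADAT are also markers of the class, and the lists were chosen with earlier results of these data known. The counts are therefore a description and not evidence of enrichment. Other members differed little or were lower, such as SLC7A13 at log2 ratios of -0.45 and -0.53 and SLC7A9 at -0.88 and -1.23. Of 9 early segment genes, 0 were past 2-fold higher and 3 lower, namely SLC6A19, a neutral amino acid carrier, at -1.67 and -2.02, GATM at -1.43 and -1.69, and SLC7A7, a cationic amino acid carrier, at -1.24 and -1.63. Their median was -0.45 and -0.48. SLC5A2, the glucose carrier SGLT2 of the early segment, had log2 ratios of -0.48 and -0.48. SLC5A1, the glucose carrier SGLT1 of the late segment, had ratios of 0.06 and 0.14, with both intervals including 0.

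Among 11 organic ion transporters, SLC47A1 and the organic anion transporter SLCO4C1 were past 2-fold higher, the latter with log2 ratios of 1.52 and 1.96, and 0 were past 2-fold lower. These counts and those of the lists below stand against 1.22% higher and 1.66% lower of all genes compared. SLC22A6 and SLC22A8, the organic anion transporters OAT1 and OAT3, were at -0.21 and -0.33 and at -0.28 and -0.43. Among 8 monocarboxylate and dicarboxylate carriers, the citrate carrier SLC13A2 was higher, at 1.60 and 2.04, and the lactate carrier SLC16A1 lower, at -1.83 and -2.29. Of 30 genes of amino acid breakdown, 2 were past 2-fold higher and 2 lower in both libraries. Of the 30, 10 were above and 17 below the early level in both, with a median of -0.07 and -0.06. In a list of 6 vitamin D and phosphate hormone genes, CYP27B1, which makes the active form of vitamin D, was at 22.8 and 23.5 CPM in later and 6.87 and 5.14 CPM in early nuclei. PCK1, the enzyme that commits carbon to glucose synthesis, was at 2693 and 3167 CPM against 1668 and 1574 CPM, without passing 2-fold in both libraries. None of the 11 genes of gluconeogenesis and fructose use, the 17 of fatty acid oxidation or the 8 of endocytosis passed 2-fold in both libraries. NR1H4, the bile acid receptor FXR, was at -0.81 and -1.23, within a list of 10 proximal tubule transcription factors of which 0 passed in both libraries.

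The perfused library was then compared with the unperfused library within the later nuclei. Of 7837 genes with at least 100 UMIs over both libraries, 25 (0.319%) were more than 2-fold higher and 181 (2.31%) more than 2-fold lower in the perfused library. The median log2 ratio was -0.02. Of the genes past 2-fold 94 had no symbol, against 764 of all 7837 genes compared, so genes without a symbol were over-represented. They are not among the named genes below. Scaling by TMM or DESeq2 factors raised each ratio by 0.08, and the counts were then 38 higher and 157 lower with either. The counts varied widely with the setting, from 15 to 289 higher and from 49 to 964 lower over the alternatives, with 257 and 366 when free RNA was subtracted.

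Several late segment genes were at a higher level in the perfused library. Of the 11 late segment genes, 8 had a log2 ratio above 0 and 6 an interval wholly above 0, with a median of 0.33, and 0 passed 2-fold. Over all 7837 genes, 14.5% had an interval wholly above 0 and 16.8% wholly below it. With SLC16A9 left out of the rule the median of the late segment genes was 0.06 and AADAT was at 0.01. HPD was at 67.4 CPM in the unperfused library and 122 CPM in the perfused one, a log2 ratio of 0.86 (0.62 to 1.1). SLC6A18 had a ratio of 0.46 (0.30 to 0.62), SLC47A1 of 0.34 (0.21 to 0.47) and AADAT of 0.33 (0.24 to 0.43). Among the 12 genes named above as highest in later over early nuclei, 7 had an interval wholly above 0, 5 an interval that included 0, and the lowest ratio was -0.04, for TMEM252. The late gene SLC16A9 was at -0.21 (-0.25 to -0.18). NCALD went from 1386 to 2325 CPM, a ratio of 0.75 (0.69 to 0.80), and the urate carrier SLC22A12 from 341 to 464 CPM, a ratio of 0.44 (0.33 to 0.56). Early segment genes had a median of -0.16, with 5 of 9 intervals wholly below 0. GATM was the lowest of them at -0.84 (-0.99 to -0.70), from 328 to 183 CPM.

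In early nuclei of the same libraries the values were different for some of these genes. SLC6A18 had a log2 ratio of -0.26 there, SLC47A1 of -0.27, AADAT of -0.21 and HPD of 0.09. GATM was at -0.58 in early nuclei. In CUBN-rich nuclei HPD had a ratio of 0.72 (0.32 to 1.14). SLC47A1 was at 324 and 547 CPM there and AADAT at 796 and 967 CPM. GATM, at 184 and 116 CPM, was lower in the perfused library there as well. The perfused later nuclei also had the higher median share of late UMIs, given above, and 59 of 483 against 44 of 614 held late UMIs only. With the bins of the late share given equal weight in each library, an alternative chosen after the data had been seen, HPD had a ratio of 1.01, SLC47A1 of 0.47, SLC6A18 of 0.52 and AADAT of 0.13.

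Among metabolic genes, PCK1 was at 2693 and 3167 CPM, a ratio of 0.23 (0.19 to 0.27), and PC, the carboxylase of pyruvate that feeds glucose synthesis, at 174 and 216 CPM, a ratio of 0.31 (0.15 to 0.47). The 11 genes of gluconeogenesis and fructose use had a median of 0.05, the 30 of amino acid breakdown of 0.01 and the 8 of endocytosis of 0.09, with 0 past 2-fold in each. The 17 fatty acid oxidation genes had a median of -0.08, and 1 was past 2-fold lower, against 2.31% of all genes. This was the thiolase ACAA2, which went from 22.8 to 8.78 CPM, a ratio of -1.37 (-2.05 to -0.74). ACAA2 was at 26.4 and 23.4 CPM in early nuclei. The medians were 0.15 for organic ion transporters, -0.06 for monocarboxylate and dicarboxylate carriers, 0.10 for adenylyl cyclases and cyclic AMP genes, and 0.07 for vitamin D and phosphate hormone genes. Transcription factors of the proximal tubule had a median within 0.01 of 0, with HNF4A, a master regulator of proximal tubule genes, at 557 CPM in both libraries and NR1H4 at -0.73 (-0.96 to -0.51).

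Heat shock genes were mostly at a lower level in the perfused later nuclei. Of 14 with enough UMIs, 2 were past 2-fold lower and 0 higher, against 2.31% and 0.319% of all genes, 8 intervals were wholly below 0, against 16.8% of all genes, and the median was -0.33. DNAJB1, a co-chaperone of HSP70, went from 120.5 to 42.7 CPM, a ratio of -1.5 (-1.79 to -1.22), and HSPA8, the constitutive HSP70, from 116 to 54.0 CPM, a ratio of -1.11 (-1.37 to -0.85). HSPA8 did not pass 2-fold under 5 of 13 alternatives, and was at -0.56 after thinning to 1000 UMIs, whereas DNAJB1 passed it under each. HSP90AA1, an HSP90 chaperone, was at 123 and 133 CPM. HSP70.2, an HSP70 gene outside the list, went from 263 to 73.7 CPM, a ratio of -1.83 (-2.05 to -1.63). Early nuclei had a median of -0.28 over the same list, with DNAJB1 at -1.15, HSPA8 at -0.71 and HSP70.2 at -1.80.

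Hypoxia targets did not move together. Of 11 tested, 1 was past 2-fold lower and 0 higher, against 2.31% and 0.319% of all genes, with a median of 0.05. The glycolytic enzyme PGK1 was at -1.01 (-1.60 to -0.46), the angiogenic factor VEGFA at -0.95 (-1.23 to -0.69) and the stress gene DDIT4 at -0.95 (-1.5 to -0.42). PFKFB3, which drives glycolysis, was at 0.77 (0.20 to 1.35). Early nuclei of the same libraries had PGK1 at -0.37, VEGFA at -0.64, DDIT4 at -0.50 and PFKFB3 at 0.49.

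Other stress lists had 0 genes past 2-fold. Their medians were 0.14 for 6 immediate early genes, 0.19 for 4 NF-kB targets, -0.07 for 3 oxidative stress genes, 0.04 for 6 genes of the unfolded protein and amino acid stress responses, 0.15 for 7 glucocorticoid targets, 0.12 for 8 clock genes and 0.20 for 6 actin and MRTF targets. ACTA2, described below, is outside the last list. The median of the immediate early genes ranged from -0.28 to 0.43 over the alternatives and was -0.29 in early nuclei, and those of the oxidative stress, unfolded protein and actin lists also changed sign under at least 1 alternative. Of 17 tubule injury genes, 5 had enough UMIs, and their median was 0.26. DCDC2, a microtubule-binding protein, was the highest of these, at 354 and 506 CPM.

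**Figure D4:**
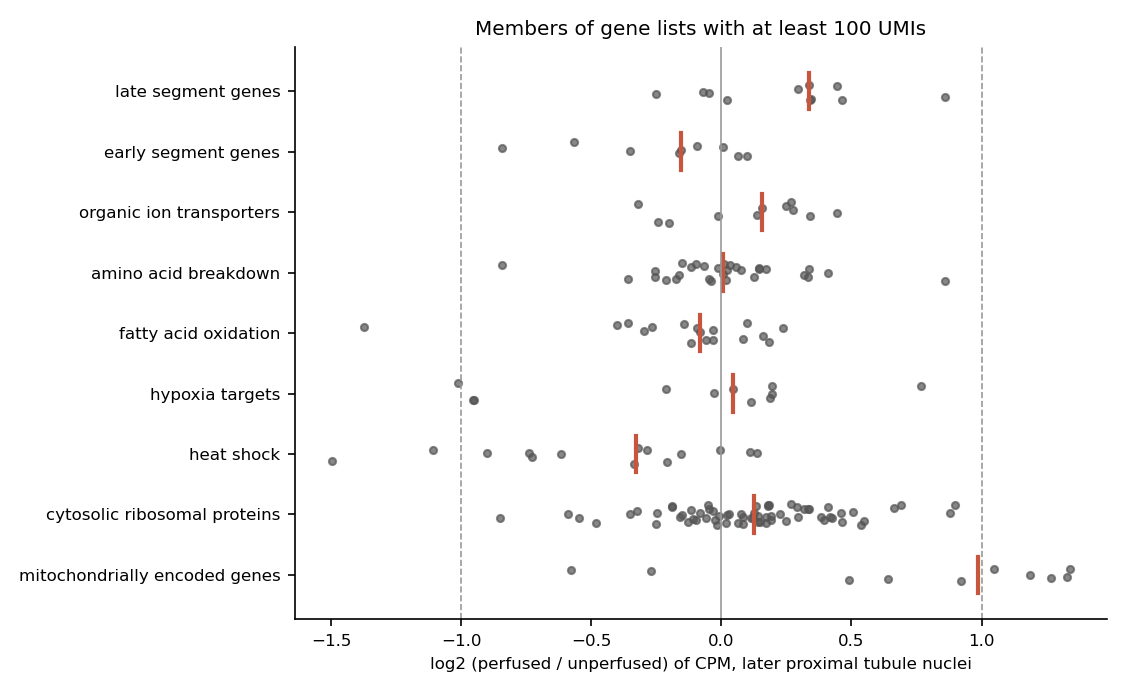
Log2 ratio of CPM in perfused over unperfused later proximal tubule nuclei for members of 9 gene lists with at least 100 UMIs. Each point is 1 gene, red bars are list medians and dashed lines mark 2-fold. Late segment genes lie mostly above 0, heat shock genes mostly below it, and 5 of 10 mitochondrially encoded genes are past 2-fold.

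Mitochondrially encoded genes were higher in the perfused library, with 5 of 10 past 2-fold, against 0.319% of all genes, 0 lower and a median of 0.98. COX3, a subunit of cytochrome c oxidase, went from 139 to 351 CPM, a ratio of 1.34 (1.19 to 1.5), and COX2 from 99.4 to 239 CPM. ND5, a subunit of complex I, was at -0.58 (-1.11 to -0.06). The median over the list was 1.35 in early and 1.23 in thick ascending limb nuclei, and mitochondrial UMIs were 0.0606% of the unperfused and 0.119% of the perfused UMIs of later nuclei. These transcripts are made outside the nucleus. When free RNA, scaled by UMOD and SLC12A1 and with the profile of the whole library, was subtracted, the median over the list in later nuclei was 0.16. The 67 cytosolic ribosomal protein genes had a median of 0.13 with 0 past 2-fold, and of -0.26 after that subtraction.

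Of the 12 named genes with the largest ratio in the perfused library, SPATA22, a meiotic recombination gene, went from 36.0 to 146 CPM in later nuclei, a log2 ratio of 2.02 (1.74 to 2.31). It had a ratio of 1.83 in early and 1.93 in thick ascending limb nuclei. ACE, the angiotensin-converting enzyme of the brush border, went from 12.9 to 27.0 CPM in later nuclei, a ratio of 1.06 (0.53 to 1.61), and was at 7.55 and 5.14 CPM in early nuclei. It was at 44.6 and 67.5 CPM in CUBN-rich nuclei. ETNPPL had a ratio of 1.01 (0.69 to 1.33). SAMD12 was at 1.22 (0.90 to 1.55), PCDH9, a protocadherin, at 1.02 (0.76 to 1.29), and SLC4A7, a sodium bicarbonate cotransporter, at 1.1 (0.75 to 1.45). In early nuclei these 3 genes were at 0.12, 0.32 and 0.37. An interval wholly above 0 was found in early nuclei for 7 of the 12, among them RGS12 at 0.82 (0.44 to 1.21). Of the 12 genes, SPATA22 and RGS12 alone were past 2-fold under each of 13 alternatives. Over the alternatives SAMD12 ranged from 0.88 to 5.45, PCDH9 from 0.42 to 5.19 and SLC4A7 from 0.47 to 4.29, each highest with free RNA subtracted. That subtraction left few or none of their UMIs in unperfused later nuclei, and a count of 0 was set to 3. These highest values therefore lie at or near that floor and do not measure a change. ETNPPL ranged from 0.18 to 1.64 and ACE from 0.55 to 2.16.

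PCDH9 and SLC4A7 were at a far higher level in the thick ascending limb, with 640 and 734 CPM and with 347 and 457 CPM, against 52.0 and 106 CPM and 29.2 and 62.4 CPM in later nuclei. ACTA2, the actin of smooth muscle, was at 13.8 and 29.2 CPM, with 18.4% and 15.1% of its UMIs in 1 nucleus, and its ratio of 1.08 turned to -0.43 when nuclei called doublets by Scrublet were left out. LRRC3B, RGS12, ANKRD55, ZBTB7A and WNK2 were the others, with ratios from 1.01 to 1.16. ANKRD55 had a ratio of 1.13 that turned to -0.50 after thinning to 1000 UMIs.

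The 12 named genes with the lowest ratios included membrane proteins, an immune sensor and a chaperone. In early nuclei, which come from the same libraries, their ratios ranged from -2.46 to -1.54, and in thick ascending limb nuclei from -1.87 to -0.07. PLPPR1, a member of the phospholipid phosphatase-related family, went from 2337 to 708 CPM in later nuclei, a ratio of -1.72 (-1.79 to -1.66), and was detected in 577 of 614 unperfused and 357 of 483 perfused nuclei. It was at -1.63 in early and -1.0 in thick ascending limb nuclei. CSMD3, a large membrane protein, went from 352 to 67.1 CPM, a ratio of -2.39 (-2.61 to -2.18), with -1.54 in early and -0.07 in thick ascending limb nuclei. NOD1, a sensor of bacterial cell wall fragments, went from 185 to 49.3 CPM, a ratio of -1.91 (-2.17 to -1.66), and PPFIA2, a scaffold protein of the liprin family, from 163 to 45.8 CPM. KLK1, tissue kallikrein, was at -1.79 (-2.56 to -1.08) and GRM3, a glutamate receptor, at -2.0 (-2.70 to -1.35). GRM3 rested on 24 UMIs in 12 perfused nuclei, 45.8% of them in 1 nucleus, and its ratio was -2.64 with the nucleus richest in it left out of each library. Each of the 12 was past 2-fold under each of the same 13 alternatives. Among these, the mitochondrial limit changed no ratio and the TMM and DESeq2 factors raised each by 0.08, so those settings could not turn the call. The remaining genes were NWD2, CCDC83, PRSS48, HSP70.2, GTSF1 and SPINK8.

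**Figure D5:**
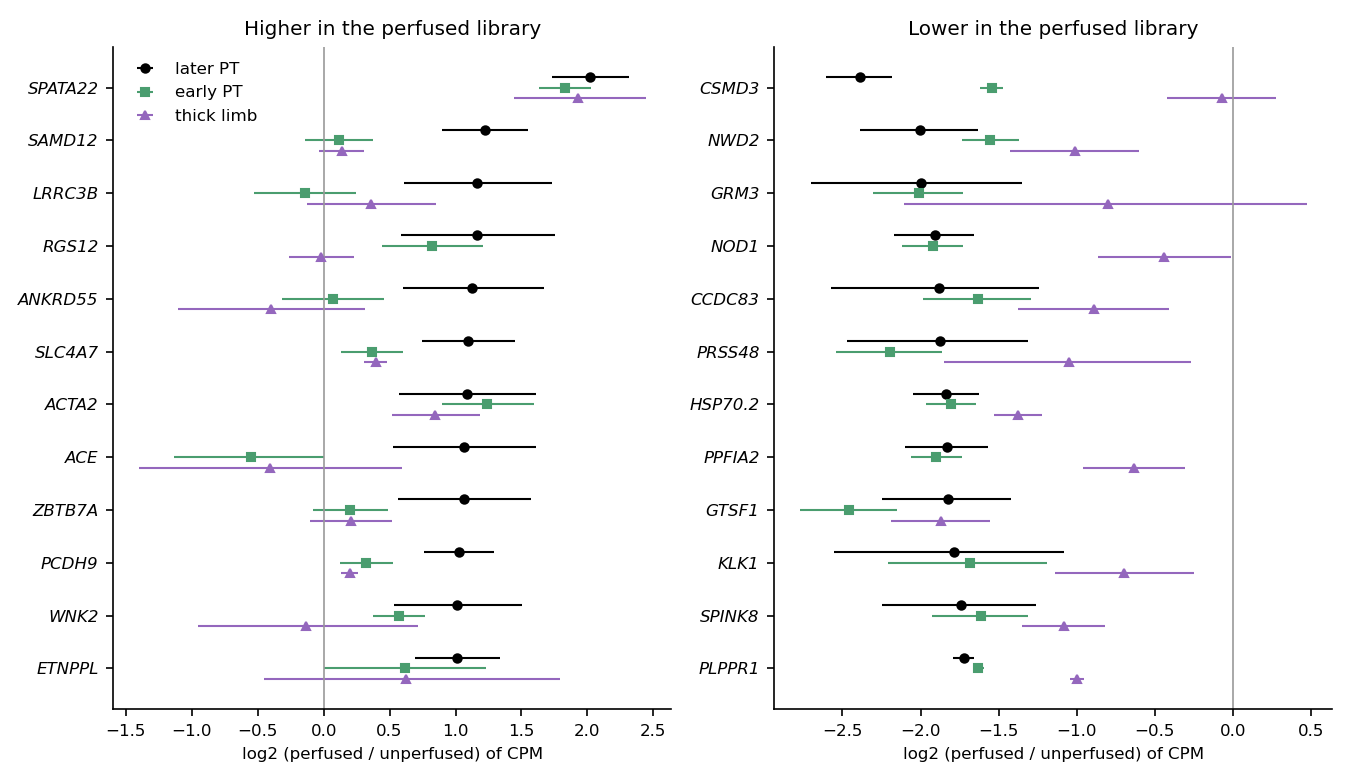
Log2 ratio of CPM in the perfused over the unperfused library for the 12 named genes with the largest ratio in each direction in later proximal tubule nuclei (black), with the same ratio in early proximal tubule (green) and thick ascending limb nuclei (purple). Bars are exact 95% counting intervals. The lower genes lie between -2.46 and -1.54 in early nuclei, and of the higher genes SPATA22 and ACTA2 are past 2-fold there.

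Markers of other cell types were also read in later nuclei. All 5 genes listed for the thick ascending limb were found, with a summed level of 2013 CPM in the unperfused library and 2746 CPM in the perfused one. CLDN10 held most of this, at 1362 and 1881 CPM, but it was at 244 and 247 CPM in thick ascending limb nuclei and so did not mark that limb here. SLC12A1 was at 358 and 507 CPM and UMOD at 270 and 330 CPM in later nuclei. UMOD and SLC12A1, which define the limb, had 35.9% and 29.3% of their level over the whole library, against 22.5% and 18.5% in early nuclei. The 6 endothelial markers summed to 255 and 303 CPM, with PECAM1 the most abundant, the 6 stromal markers to 98.3 and 106 CPM, with C7, and the 6 immune markers to 68.5 and 85.6 CPM, with PTPRC and SKAP1. The 4 podocyte markers in the files summed to 34.3 and 33.6 CPM. Connecting tubule and principal cell markers summed to 481 and 274 CPM, most of it SLC8A1, and the 5 of the distal convoluted tubule to 840 and 792 CPM, led by TRPM6 and CNNM2. Intercalated cell markers summed to 113 and 64.0 CPM, led by KIT, with FOXI1 at 0 in the perfused nuclei. Markers of injured tubule summed to 476 and 640 CPM, most of it DCDC2, and the 4 of the CUBN-rich class, which the rule limits, to 22.5 and 26.0 CPM.

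Scrublet called 104 of 614 unperfused (16.9%) and 89 of 483 perfused (18.4%) later nuclei doublets, against 8.59% and 8.21% of all nuclei. With called doublets left out, HPD had a perfused over unperfused ratio of 0.71, DNAJB1 of -1.58, and late segment genes a median of 0.33. With free RNA subtracted instead, HPD had a ratio of 0.74, SLC47A1 of 0.21 and DNAJB1 of -3.13, and late segment genes a median of 0.21. Without doublets, the later over early ratio of CDH8 was at least 3.66 in both libraries and that of SLC38A3 at most -2.45.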

How the data were processed

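Nuclei of frozen pig renal cortex were sequenced with 10x chemistry, 1 library per condition. The authors aligned reads with Cell Ranger 5.0.1 to Ensembl release 103, introns included, and deposited raw UMI counts per gene and barcode; these counts precede the study's own filters for nuclei, free RNA and doublets. Of 31908 genes, 16554 had a deposited symbol, 822 took one from a table of identifiers and 14532 had none. Barcodes with 500 to 6000 genes were kept and classed by the rule in the text. Thick ascending limb nuclei had at least 30 UMIs of SLC12A1 and UMOD per 10000. UMIs were summed per class and library and divided by their total. Ratios carry exact conditional binomial intervals, levels exact Poisson intervals and shares Clopper-Pearson intervals. Genes needed 100 UMIs, a limit lowered in proportion to the UMIs kept where nuclei were thinned, and a count of 0 was set to 3. Barcodes are not replicates, so no test was run. Named genes were the 12 with a symbol with the largest ratio in each direction, with the genes of the rule and mitochondrially encoded and ribosomal genes left out. For perfused over unperfused, these needed an interval without 0, UMIs in 20 nuclei and at most 20% of UMIs in 1 nucleus, in the library where the gene was higher. For later over early, they were ranked by the smaller ratio of the 2 libraries. The members, the 23 gene lists (288 of 307 entries matched a symbol) and the 13 marker lists were chosen with earlier results of these data known. Results of some genes are not reported here. The calculation of the ratios was run on simulated data, and no result given here rests on that run. Python 3.11.15, scanpy 1.11.5, scipy 1.17.1, edgeR 4.0.16 and DESeq2 1.42.0 (scaling factors only) were used.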

Additional observations from a re-analysis of the deposited data

Results flagged for a closer look

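Of 236 genes named in the text or held in the lists with at least 100 UMIs in later nuclei, 8 had opposite directions in later and early proximal tubule nuclei between the perfused and the unperfused library, each with both counting intervals off 0. The difference between the classes was not tested, and both classes come from the same 2 libraries. The share of all genes with opposite directions is not given here, so 8 of 236 cannot be set against it. In 5 of them the perfused library was higher in later and lower in early nuclei. The log2 ratio was 0.33 in later and -0.21 in early nuclei for AADAT, whose later value was 0.01 with SLC16A9 left out of the rule, 0.31 and -0.31 for PC, 0.23 and -0.08 for PCK1, 0.34 and -0.27 for SLC47A1, and 0.46 and -0.26 for SLC6A18. In 3 it was lower in later and higher in early nuclei. These values were -0.58 and 0.34 for ND5, -0.29 and 0.37 for SLC16A7, a monocarboxylate carrier, and -0.25 and 0.10 for SLC7A9, a cystine carrier subunit. In CUBN-rich nuclei AADAT, PCK1 and SLC47A1 were at a higher level in the perfused library too, PCK1 at 2709 and 3521 CPM.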

How the results depend on the processing

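No paired analysis was possible because each condition had 1 library and no test was made, and no replicate could be left out for the same reason. The mitochondrial limit of 7% removed 0 later nuclei. It moved their shares only through the other nuclei removed, to 8.73% and 8.17%, and changed no other value. With Scrublet doublets left out, later nuclei were 7.93% of unperfused and 7.25% of perfused nuclei. They were 7.11% and 6.62% with at least 60 UMIs of LRP2 and CUBN per 10000, 5.71% and 5.71% with at least 3 late UMIs and over 2 times the early UMIs, and 5.57% and 5.68% with nuclei that held markers of another lineage left out. With SLC16A9 left out of the rule, an alternative chosen after seeing the data, they were 2.15% and 3.07%. The order of the libraries turned in the last 2 of these settings.

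The 25 genes past 2-fold higher in the perfused library were 15 with at least 60 UMIs of LRP2 and CUBN per 10000, 38 with TMM and 38 with DESeq2 factors, 50 with nuclei weighted equally, and 56 with late-share bins weighted equally, which was also chosen after seeing the data. They were 289 after thinning to 1000 UMIs, 257 with free RNA subtracted, 161 with at least 20 UMIs per gene and 177 at 1.5-fold. The 181 lower genes were 511, 366, 964 and 506 under the same settings, and 49 without SLC16A9 in the rule, where fewer genes reached 100 UMIs. Past 2-fold higher in later than early nuclei, 112 genes became 328 with free RNA subtracted, 209 with at least 20 UMIs and 355 at 1.5-fold. The 152 lower genes became 415, 261 and 411, 230 with over 2 times the early UMIs and 288 without SLC16A9. Of 645 values of named genes over these settings and with the richest nucleus left out, also added after seeing the data, 479 stayed within their counting interval and 2 changed sign, ACTA2 at -0.43 without doublets and ANKRD55 at -0.50 after thinning. The cause of these shifts was not tested. Of 276 list medians, 225 moved by at most 0.1. Both totals include the mitochondrial limit, which changed none of these values. They also include the TMM and DESeq2 factors, which shifted every perfused over unperfused value by 0.08. No list median could move by more than 0.1 under those settings.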
